A study of Homo sapiens with 12 samples.

Results

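The regulators of the integrated stress response described here are ATF4, ATF5, CEBPG, DDIT3, NUPR1, PPP1R15A, TRIB3, CHAC1, SESN2 and DDIT4. They were taken by symbol from a table of 60641 gene symbols, all 10 were found in it, and all 10 were among the 17889 genes with enough counts for a test. RNA was sequenced from SRA01/04, a single immortalised line of human lens epithelium, after 24 hours of treatment. The groups were cells given 1,2-DHN (1,2-dihydroxynaphthalene, a metabolite of naphthalene) and asparagine together (DHN-A), cells given 1,2-DHN alone (DHN), cells given asparagine alone (NC-A) and cells given neither (NC), with 3 libraries each. The sources used here give neither doses nor the order of addition nor the medium. The labels do not say whether the 3 libraries of a group stem from separate cultures, so every p-value rests on a spread between libraries that may be technical.

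The integrated stress response starts when a kinase phosphorylates the translation initiation factor eIF2 on its alpha subunit. Most protein synthesis then slows, while the mRNA of ATF4, whose upstream reading frames normally hold translation back, is translated more. ATF4 protein, a basic leucine zipper (bZIP) transcription factor that binds DNA as a dimer, switches on genes of amino acid supply and redox defence together with its own partners and brakes, and long activation can end in cell death through CHOP, the product of DDIT3. Lack of amino acids, misfolded protein in the endoplasmic reticulum, haem shortage and double-stranded RNA each act through a kinase of their own. The data here are RNA levels and hold no measure of eIF2 phosphorylation or of translation.

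Binding letters for bZIP factors were looked for in the 250 bases before and 50 bases after the start that RefSeq gives for each gene (RefSeq sequences, GRCh38.p14), which were at hand for 9 of the 10 genes and not for NUPR1. The stretches with a match are shown because the regulators are themselves bZIP factors or known targets of such factors. They are printed 5′ to 3′ on the strand of the gene, with the match in capitals. Positions are counted back from the RefSeq start, which is base 40953471 for CHAC1, 48872421 for PPP1R15A, 57520514 for DDIT3 and 49928906 for ATF5.
CHAC1, chr15:40953251-40953280, plus strand: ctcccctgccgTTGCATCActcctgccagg
PPP1R15A, chr19:48872352-48872381, plus strand: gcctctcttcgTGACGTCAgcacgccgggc
DDIT3, chr12:57520738-57520764, minus strand: gcgcgcgcaTGACTCAcccacctcctc
ATF5, chr19:49928707-49928735, plus strand: ggagagtgctgTGACTCAtgctggactct
In CHAC1 the capitals mark the C/EBP-ATF response element, searched as TGATGNAA on both strands and found in 3.62% of 35116 promoter windows, at positions -209 to -202. In PPP1R15A they mark the cyclic AMP response element, searched as TGACGTCA (1.85% of windows), at -58 to -51. In DDIT3, at -241 to -235, and in ATF5, at -188 to -182, they mark an AP-1 site, searched as TGANTCA on both strands (7.71% of windows). Each gene had 1 match, no match overlapped another, and none of the letters searched occurred in the windows of ATF4, CEBPG, TRIB3, SESN2 or DDIT4. The outermost starts in GENCODE release 29, used for the gene positions below, lie farther upstream for all 4 genes. The stretches of CHAC1, ATF5 and DDIT3 thus lie inside the genes as GENCODE draws them, with 30 of 30, 29 of 29 and 6 of 27 bases in GENCODE exons, and that of PPP1R15A, with 0 of 30, lies before the gene. A match describes letters in this window only.

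Library totals ran from 12381071 counts to 27526206. The library NC-A 1 lay apart from the others of its group on the first principal component (65.1, against 12.5 and 10.4, for 33.9% of the variance); without it every call on the 10 genes below stood as with it. Of 24 lens markers 8 had enough counts for a test. PAX6 and SIX3, transcription factors of eye development, averaged 25.2 ± 0.979 and 14.3 ± 1.38 CPM in NC (CPM, counts scaled to library size; mean ± SD, n = 3), while 16 of the markers, the lens crystallin gene CRYAA and the lens factor gene FOXE3 among them, averaged under 0.5 CPM over the 12 libraries and CRYGC had no count.

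The 10 genes differed widely in abundance. Per length, in TPM (a level scaled to gene length and library size, from the deposited counts and gene lengths), PPP1R15A was at 1283 ± 51.8 in DHN and 472 ± 18.9 in NC. ATF4 was at 621 ± 15.2 TPM in DHN and 386 ± 10.7 TPM in NC. Next in NC came CEBPG at 99.97, SESN2 at 54.2, ATF5 at 50.6, TRIB3 at 45.9, DDIT3 at 37.9, DDIT4 at 31.5 and CHAC1 at 12.5 TPM. NUPR1 was barely expressed, at 1.08 TPM in NC and 17 to 92 counts per library, so its values are the least precise.

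1,2-DHN alone raised most of these genes. Asparagine alone raised most of the same genes, by less except for ATF4 (log2 change 0.71 with asparagine and 0.66 with 1,2-DHN). The 2 compounds together left them near the level of asparagine alone. This closeness is not particular to the regulators, as only 2.1% of all tested genes were called in DHN-A against NC-A. CEBPG and DDIT4 were called lower there. In DHN against NC 7 of 10 were called higher, where 19.7% of all tested genes were, and 1 lower, where 19% were, 38.7% in all (edgeR, adjusted p under 0.05). In NC-A against NC 7 were called higher (9.32% of all genes) and 1 lower (10.9%, 20.2% in all), and 6 genes, ATF4, CEBPG, PPP1R15A, TRIB3, CHAC1 and SESN2, were higher in both. These comparisons share the NC libraries, and the share of all genes higher in both was not counted, so nothing is read from this overlap. The median log2 change of the 10 genes was 0.85 in DHN against NC, beside 0.0073 over all tested genes, and 0.46 in NC-A against NC, beside 0.0031. In bulk RNA, fewer cells of a type and less RNA per cell cannot be told apart, for these and all results below. The 10 genes and the lists below were chosen with earlier results of these data known. Their counts beside the shares of all genes are therefore descriptions and no independent test.

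**Figure D1:**
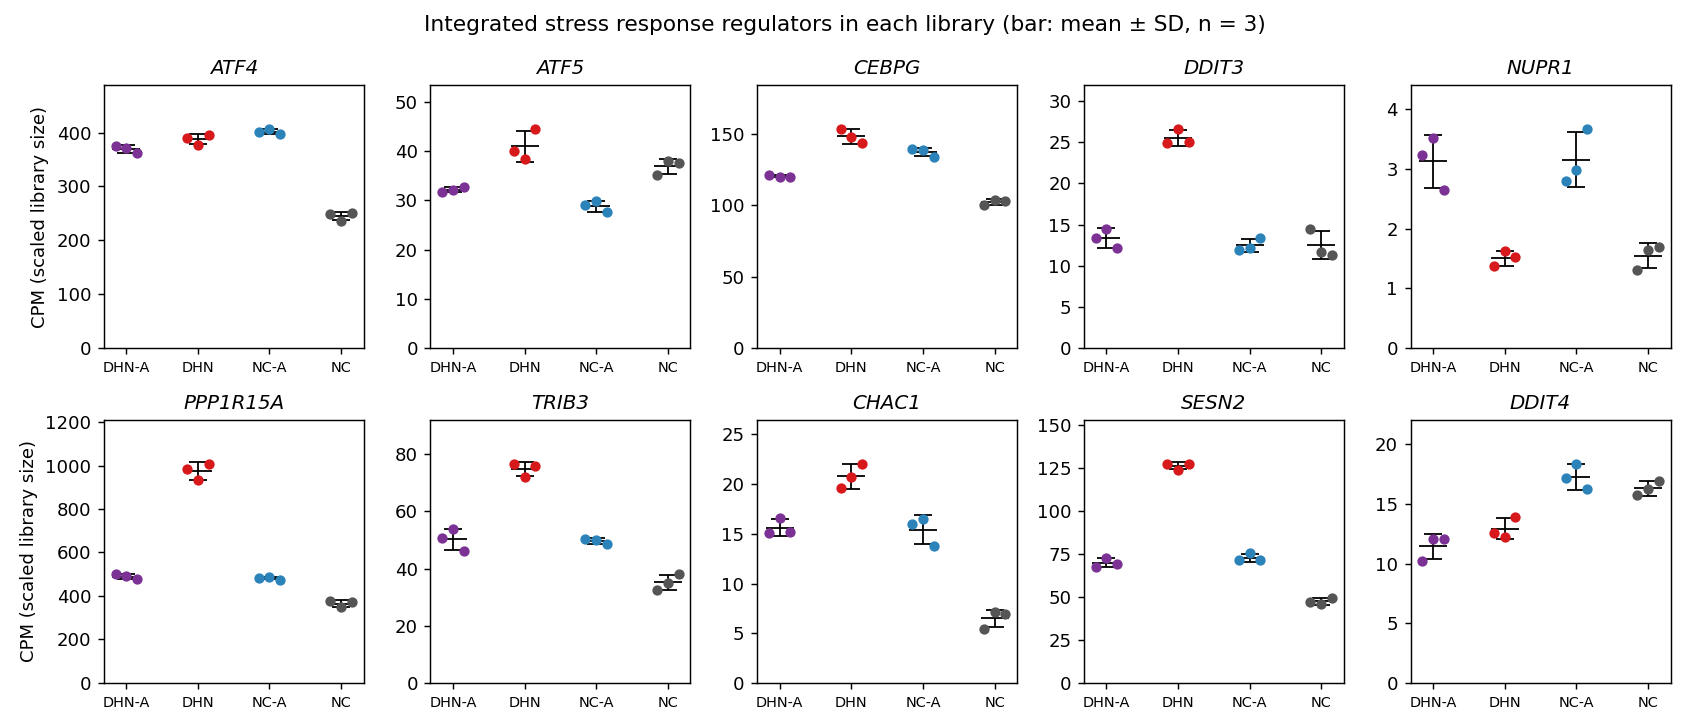
Level of each regulator in every library, in CPM on linear axes that start at 0, for DHN-A, DHN, NC-A and NC; points are libraries and bars the mean ± SD (n = 3). DHN stands highest for ATF5, CEBPG, DDIT3, PPP1R15A, TRIB3, CHAC1 and SESN2, while ATF4 is at a like height in DHN-A, DHN and NC-A, and NUPR1 is higher in both groups given asparagine.

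ATF4, on chromosome 22 from 39519695 to 39522685 (GRCh38, GENCODE release 29, as for all gene positions), reached almost the same RNA level with either compound or both. Its libraries had 375, 370.4 and 362 CPM in DHN-A, 389, 377 and 395 CPM in DHN and 400.3, 407 and 398 CPM in NC-A, against 248, 236 and 251 CPM in NC. All 9 treated libraries lay above all 3 NC libraries, and the treated groups were in the order NC-A, DHN, DHN-A with narrow gaps. The log2 change was 0.66 ± 0.037 (± SE, as for all log2 changes) in DHN against NC (edgeR adjusted p = 7.39e-20) and 0.71 ± 0.037 in NC-A against NC (adjusted p = 7.17e-20). Among the treated groups none of the differences passed the test: DHN against NC-A was at -0.053 (95% interval -0.13 to 0.02), DHN-A against DHN at -0.068 (-0.14 to 0.0043) and DHN-A against NC-A at -0.12 (-0.19 to -0.049, adjusted p = 0.0651). The last of these passed with DESeq2 (adjusted p = 0.00541), in a fit of those 2 groups alone (adjusted p = 0.0427) and without DHN 3 (adjusted p = 0.0478).

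CEBPG, on chromosome 19 from 33373330 to 33382686, encodes C/EBP gamma, a bZIP protein that dimerises with ATF4 and lacks an activation domain of its own. It had 121, 120.0 and 119.9 CPM in DHN-A, 154, 148 and 144 CPM in DHN, 139, 139 and 134 CPM in NC-A and 100.2, 104 and 103 CPM in NC. The 4 groups did not overlap and stood in the order DHN, NC-A, DHN-A, NC. CEBPG rose by 0.53 ± 0.042 on the log2 scale in DHN against NC and by 0.42 ± 0.043 in NC-A against NC. It was lower in DHN-A than in DHN, by 0.30 ± 0.041, and lower in DHN-A than in NC-A, with a log2 change of -0.19 ± 0.042 (adjusted p = 0.00533, but 0.0845 with no filter on low counts). The difference between DHN and NC-A was small (0.11 ± 0.042, adjusted p = 0.0334) and was lost with no filter and without NC-A 2, NC-A 3, DHN 1 or DHN 2 (adjusted p up to 0.141).

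ATF5, on chromosome 19 from 49928702 to 49933935, is a bZIP relative of ATF4 under the same kind of translational control and is best known for its part in the mitochondrial stress response. Its RNA did not follow that of ATF4: it had 31.6, 32.2 and 32.7 CPM in DHN-A, 40.1, 38.3 and 44.5 CPM in DHN, 29, 29.8 and 27.6 CPM in NC-A and 35.2, 38 and 37.5 CPM in NC. Both groups given asparagine lay below both groups without it. ATF5 fell by 0.36 ± 0.069 on the log2 scale in NC-A against NC (adjusted p = 9.86e-05) and by 0.35 ± 0.064 in DHN-A against DHN (adjusted p = 1.36e-05), while DHN against NC did not pass the test (0.15 ± 0.065, interval 0.02 to 0.28, adjusted p = 0.0616; 0.0222 without DHN 2). The table's count may hold reads of NUP62, a nuclear pore gene on the opposite strand that shares 21.19% of the exon bases of ATF5, since no source used here gives the strand setting of the counting. NUP62, looked up after the values were seen, had log2 changes of -0.054 in NC-A against NC and -0.059 in DHN-A against DHN, neither of which passed the test. IL4I1, also on the opposite strand, shares 2.54% of the exon bases and MIR4751, with 0 counts in every library, 2.51%. IL4I1 fell by 1.45 ± 0.079 in DHN against NC and was not called in NC-A against NC. It was higher in DHN-A than in DHN, by 1.20 ± 0.079, where ATF5 was lower. The part of NUP62 and IL4I1 in the ATF5 count was not tested.

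DDIT3, on chromosome 12 from 57516588 to 57521737, encodes CHOP, a bZIP factor that forms dimers with C/EBP proteins and with ATF4 and can promote cell death. It had 13.4, 14.5 and 12.2 CPM in DHN-A, 24.9, 26.6 and 25 CPM in DHN, 12, 12.1 and 13.4 CPM in NC-A and 14.5, 11.7 and 11.4 CPM in NC. The DHN libraries stood alone above all the others, and the other 3 groups overlapped. The log2 change was 1.04 ± 0.094 in DHN against NC (adjusted p = 7.37e-13) and -0.93 ± 0.091 in DHN-A against DHN (adjusted p = 7.07e-12). In NC-A against NC it was 0.016 with an interval of -0.19 to 0.22 (adjusted p = 0.938), a comparison in which ATF4 rose. Of the exon bases of DDIT3, MARS1, a tRNA synthetase gene, shares 27.16% and MBD6 4.44%, both on the opposite strand, and AC022506.1 shares 8.03% on the same strand. AC022506.1 had 0 counts in every library, and the part of the other two in the DDIT3 count was not tested. MARS1 rose by 0.62 ± 0.038 in NC-A against NC and by 0.18 ± 0.038 in DHN against NC, and was higher in DHN-A than in DHN, by 0.32 ± 0.037, where DDIT3 was lower. MBD6 moved with DDIT3: it rose by 0.36 ± 0.066 in DHN against NC, was lower in DHN-A than in DHN, by 0.44 ± 0.065, and was not called in NC-A against NC.

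NUPR1, on chromosome 16 from 28532708 to 28539174, encodes a small stress-induced chromatin protein. It had 3.24, 3.52 and 2.65 CPM in DHN-A, 1.37, 1.62 and 1.53 CPM in DHN, 2.81, 2.98 and 3.68 CPM in NC-A and 1.31, 1.64 and 1.69 CPM in NC. All 6 libraries with asparagine lay above all 6 without it. NUPR1 rose by 1.02 ± 0.23 on the log2 scale in NC-A against NC (adjusted p = 0.00105) and by 1.04 ± 0.23 in DHN-A against DHN (adjusted p = 0.000191), and DHN against NC was at -0.036 (interval -0.54 to 0.47). No other of the 10 genes was called higher with asparagine both without and with 1,2-DHN.

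PPP1R15A, on chromosome 19 from 48872392 to 48876057, encodes GADD34, which brings protein phosphatase 1 to phosphorylated eIF2 alpha and so ends the response. Its libraries had 499, 492 and 476 CPM in DHN-A, 983, 932 and 1009 CPM in DHN, 482, 487 and 475 CPM in NC-A and 376, 347 and 371 CPM in NC. The DHN libraries were the highest, the NC libraries the lowest, and the DHN-A and NC-A libraries overlapped in between. PPP1R15A rose by 1.42 ± 0.037 (2.67-fold) in DHN against NC (adjusted p = 2.03e-32) and by 0.40 ± 0.037 in NC-A against NC (adjusted p = 1.4e-11). With asparagine added to 1,2-DHN it fell by 1.00 ± 0.037 on the log2 scale (1.99-fold lower; adjusted p = 1.64e-26). DHN-A against NC-A was at 0.022, with an interval of -0.052 to 0.096.

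TRIB3, on chromosome 20 from 362835 to 397559, encodes a pseudokinase that binds ATF4 and CHOP and dampens their action. It had 50.7, 53.7 and 46.3 CPM in DHN-A, 76.7, 72.2 and 75.8 CPM in DHN, 50.5, 49.9 and 48.6 CPM in NC-A and 32.6, 34.8 and 38 CPM in NC. The order of the groups was that of PPP1R15A. The log2 change was 1.08 ± 0.06 in DHN against NC (adjusted p = 5.75e-20), 0.49 ± 0.063 in NC-A against NC (adjusted p = 6.43e-08) and -0.57 ± 0.057 in DHN-A against DHN (adjusted p = 1.17e-11).

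CHAC1, on chromosome 15 from 40952962 to 40956519, encodes an enzyme that degrades glutathione and is the regulator whose window holds the C/EBP-ATF response element shown above. It had 15.1, 16.6 and 15.2 CPM in DHN-A, 19.6, 20.7 and 22.1 CPM in DHN, 16, 16.5 and 13.7 CPM in NC-A and 5.47, 7.10 and 6.89 CPM in NC. Its estimated log2 changes were the largest of the 10 genes in DHN-A, DHN and NC-A against NC, although in DHN-A and NC-A those of NUPR1 lay within the errors. CHAC1 rose by 1.67 ± 0.11 (3.18-fold) in DHN against NC (adjusted p = 5.04e-18), by 1.23 ± 0.11 (2.34-fold) in NC-A against NC (adjusted p = 5.82e-12) and by 1.25 ± 0.10 in DHN-A against NC (adjusted p = 3.34e-13). It was lower in DHN-A than in DHN, by 0.42 ± 0.092 (adjusted p = 0.000222).

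SESN2, on chromosome 1 from 28259527 to 28282491, encodes sestrin 2, which senses leucine and restrains the growth kinase mTORC1. It had 67.6, 72.7 and 69.3 CPM in DHN-A, 127, 124 and 127 CPM in DHN, 71.3, 75.4 and 71.5 CPM in NC-A and 47, 45.7 and 49.5 CPM in NC. DHN stood apart at the top and the DHN-A and NC-A libraries overlapped. SESN2 rose by 1.41 ± 0.049 (2.66-fold) in DHN against NC and by 0.62 ± 0.052 in NC-A against NC. It was lower in DHN-A than in DHN, by 0.85 ± 0.046 on the log2 scale.

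DDIT4, on chromosome 10 from 72273920 to 72276036, encodes REDD1, which restrains mTORC1 through the TSC complex and is also a known target of hypoxia signalling. Unlike SESN2 it was lower with 1,2-DHN: it had 10.2, 12 and 12.1 CPM in DHN-A, 12.6, 12.2 and 13.9 CPM in DHN, 17.1, 18.4 and 16.3 CPM in NC-A and 15.7, 16.3 and 16.9 CPM in NC. All 6 libraries with 1,2-DHN lay below all 6 without it. DDIT4 fell by 0.33 ± 0.096 on the log2 scale in DHN against NC (adjusted p = 0.0042) and by 0.59 ± 0.096 in DHN-A against NC-A (adjusted p = 7.92e-05). Asparagine made no difference that passed the test, at 0.076 in NC-A against NC (interval -0.12 to 0.27) and -0.18 in DHN-A against DHN (-0.38 to 0.016). In GENCODE release 29 the antisense gene DDIT4-AS1 shares 41.16% of the exon bases of DDIT4, and the table lists it with 0 counts in every library.

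For 5 of the 10 genes the change with asparagine was a rise without 1,2-DHN and a fall with it. Of the 7 genes that asparagine raised on its own, CEBPG, PPP1R15A, TRIB3, CHAC1 and SESN2 were lower in DHN-A than in DHN, ATF4 was not called, and NUPR1 was higher. ATF5 was called lower both times. The share of all genes with such a turn was not counted, so nothing is read from it about the regulators. With DHN-A close to NC-A, a gene raised by both compounds but more by 1,2-DHN would show it. In DHN-A against DHN 7 of 10 were called lower, where 20.8% of all genes were, and 1 higher (20.9%, 41.7% in all), and the median was -0.38, beside 0.0091 over all genes. NC-A against NC and DHN-A against DHN share no library. The groups did not overlap for 10 of 10 genes in DHN-A against DHN (51.3% of all genes) and for 9 of 10 in DHN against NC (46.2%).

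**Figure D2:**
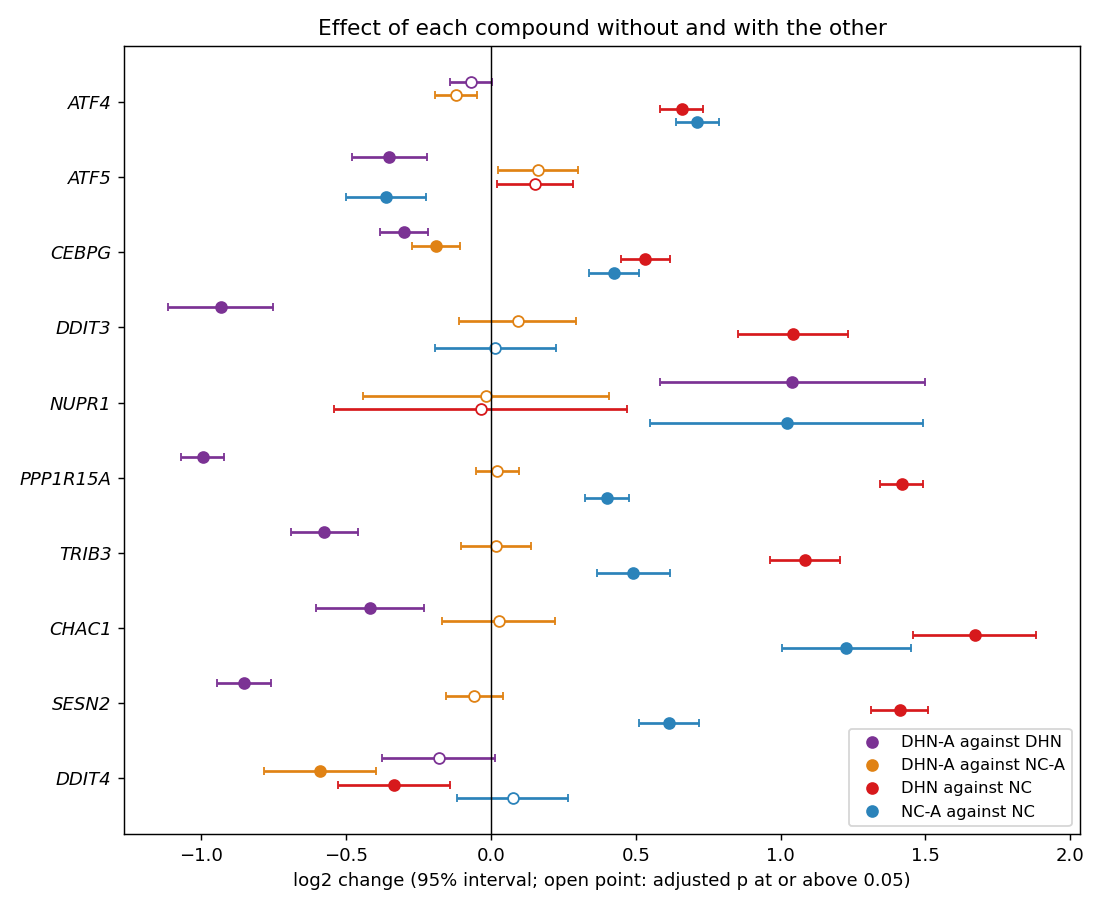
Log2 change of each regulator in DHN-A against DHN, DHN-A against NC-A, DHN against NC and NC-A against NC, with 95% intervals; open points did not pass an adjusted p of 0.05. For PPP1R15A, TRIB3, CHAC1, SESN2 and CEBPG the change with asparagine lies right of 0 without 1,2-DHN and left of 0 with it, while the points for DHN-A against NC-A sit near 0 for most genes.

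The rise with 1,2-DHN was smaller where asparagine was present, by the interaction test below for 7 of the 10 genes. DHN-A against NC-A, which shares no library with DHN against NC, had 0 of 10 genes called higher and 2 called lower, CEBPG and DDIT4, where 0.805% and 1.29% of all genes were called. The count called higher was also 0 with DESeq2 and limma-voom, and at an unadjusted p under 0.05 edgeR had 1 gene higher, ATF5, and 3 lower. Only 2.1% of all genes were called, so that most of the regulators were not is no result about them. For those 8 the log2 changes ran from -0.12 to 0.16, and the widest 95% bounds, those of NUPR1, were -0.44 and 0.41. For SESN2 the interval was -0.16 to 0.041, for TRIB3 -0.10 to 0.14 and for CHAC1 -0.17 to 0.22, all short of the rises of the same genes in DHN against NC.

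Both compounds together still left the RNA of most regulators above that of cells given neither. In DHN-A against NC 7 of 10 were called higher, where 9.83% of all genes were, and 2 lower (11.2%, 21.1% in all), and for 9 of 10 the groups did not overlap (35% of all genes). ATF4 was higher by 0.59 ± 0.036, SESN2 by 0.56 ± 0.049, TRIB3 by 0.51 ± 0.06, PPP1R15A by 0.42 ± 0.037, CEBPG by 0.23 ± 0.042 and NUPR1 by 1.00 ± 0.22 on the log2 scale, and DDIT4 was lower by 0.51 ± 0.093. ATF5 was called lower (-0.20 ± 0.064, adjusted p = 0.0202), a call lost without NC 2, NC 3, DHN-A 1 or DHN-A 2 (adjusted p of 0.051 to 0.0835). DDIT3 was not called, at 0.11 (interval -0.086 to 0.30).

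Set against each other directly, 1,2-DHN alone gave higher levels than asparagine alone for most of the 10 regulators, while ATF4 itself was not called. In DHN against NC-A 7 of 10 were called higher, where 21.1% of all genes were, and 2 lower (21.2%, 42.3% in all), and for 10 of 10 the groups did not overlap (50.4% of all genes). DDIT3 differed by 1.03 ± 0.098, PPP1R15A by 1.02 ± 0.037, SESN2 by 0.80 ± 0.048, TRIB3 by 0.59 ± 0.06, ATF5 by 0.51 ± 0.069 and CHAC1 by 0.44 ± 0.098. NUPR1 was lower in DHN than in NC-A, by 1.06 ± 0.24, and DDIT4 by 0.41 ± 0.099.

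The interaction, the log2 change in DHN-A against NC-A minus that in DHN against NC, tests whether the changes with each compound add up. It was called below 0 for 7 of 10 genes, where 12.5% of all genes were called lower, and called above 0 for none (13.2%, 25.7% in all; also 0 with DESeq2, limma-voom or an unadjusted p under 0.05). It was -1.64 ± 0.14 for CHAC1 (adjusted p = 1.11e-12), -1.47 ± 0.069 for SESN2 (8.73e-22), -1.40 ± 0.052 for PPP1R15A (2.14e-25) and -1.07 ± 0.085 for TRIB3 (6.17e-14). For DDIT3 it was -0.95 ± 0.14 (4.76e-07), for ATF4 -0.78 ± 0.052 (1.43e-16) and for CEBPG -0.72 ± 0.059 (1.49e-13). The separate changes of CHAC1 add up to 2.90, while DHN-A against NC gave 1.25. These 7 genes are the 7 called higher in DHN against NC. Only 2.1% of all genes were called in DHN-A against NC-A. The interaction is therefore, for most genes, close to the change in DHN against NC with its sign turned. For CHAC1 that change was 1.67. The count called below 0 is thus not independent of the rise with 1,2-DHN and is no second result about the regulators. NUPR1 (0.018 ± 0.33, interval -0.64 to 0.68), ATF5 (0.011 ± 0.094, -0.18 to 0.20) and DDIT4 (-0.26 ± 0.14, -0.53 to 0.018) were not called.

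**Figure D3:**
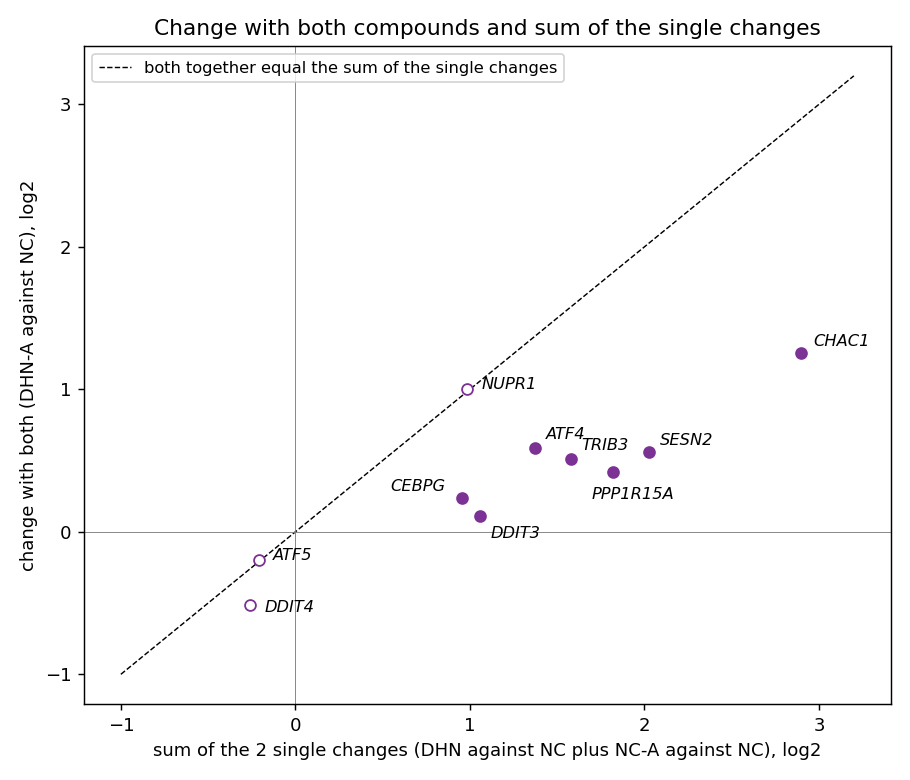
Log2 change with both compounds (DHN-A against NC, vertical) over the sum of the changes with each alone (horizontal), 1 point per regulator; filled points had an interaction with an adjusted p under 0.05, and the dashed line is where both together equal the sum. The 7 filled points lie below the line, CHAC1 the farthest, and NUPR1 and ATF5 lie close to it.

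Other ATF4 targets, a list of 34 genes of amino acid synthesis, transport and stress signalling, split by which compound raised them more. Of 31 tested, 22 rose and 4 fell in DHN against NC, where 19.7% and 19% of all genes did. In NC-A against NC 23 rose and 1 fell, beside 9.32% and 10.9% of all genes. The median log2 change was 0.25 in DHN against NC, beside 0.0073 over all genes, and 0.45 in NC-A against NC, beside 0.0031. FGF21, SLC7A3 and SLC7A5 had too few counts. In DHN-A against DHN 15 of the 31 were higher and 8 lower (20.9% and 20.8% of all genes), where 1 of the 10 regulators was higher and 7 lower. In DHN against NC-A 9 of the 31 were higher and 17 lower, where 21.1% and 21.2% of all genes were. SLC3A2, which encodes the 4F2 heavy chain of amino acid transporters, was higher in DHN than in NC-A, by 1.00 ± 0.04, as was ATF3, a stress-induced bZIP factor, by 1.17 ± 0.042. PHGDH, the first enzyme of serine synthesis, and MTHFD2, a mitochondrial folate enzyme, followed ATF4 instead, and PHGDH averaged 216 CPM in DHN-A, 216 in DHN, 219.9 in NC-A and 138 in NC. ASNS, asparagine synthetase, rose by 1.12 ± 0.20 in DHN against NC and by 1.34 ± 0.20 in NC-A against NC. Its level was low, at 4.48 ± 0.20 CPM in DHN, 5.21 ± 0.29 CPM in NC-A and 2.08 ± 0.55 CPM in NC. The interaction was called below 0 for 21 of the 31 and above 0 for 2, where 12.5% and 13.2% of all genes were. It was -1.47 ± 0.057 for SLC3A2, -1.40 ± 0.26 for ASNS, -0.72 ± 0.062 for MTHFD2 and -0.66 ± 0.057 for PHGDH. As for the regulators, the interaction is not independent of the changes in DHN against NC.

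**Figure D4:**
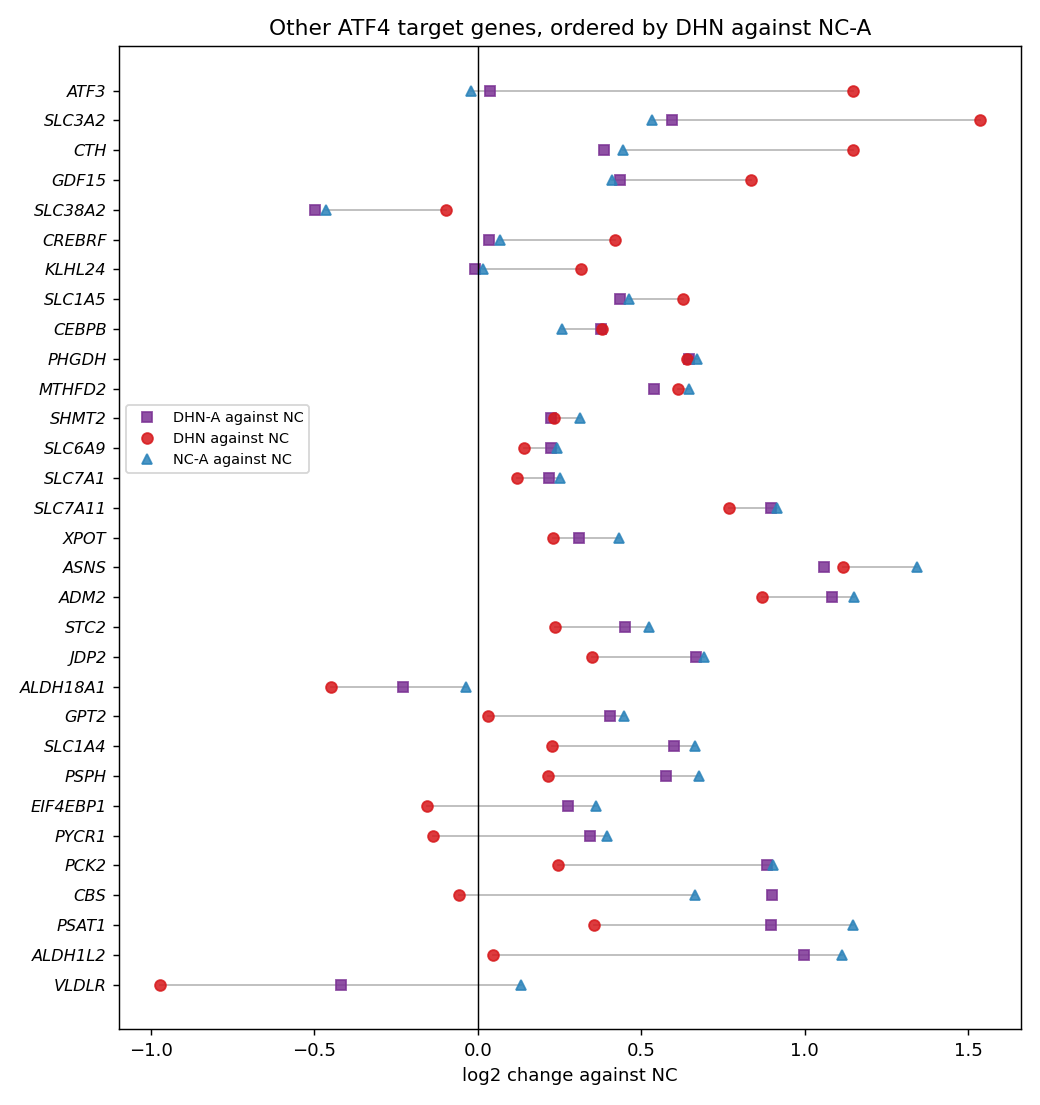
Log2 change against NC of 31 other ATF4 targets in DHN-A (squares), DHN (circles) and NC-A (triangles), ordered by DHN against NC-A from the most positive at the top; a grey line joins DHN and NC-A. For most genes the square lies near the triangle, and the circle lies to the right of it for the genes at the top and to the left of it for those at the bottom.

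The genes whose levels ran most like those of ATF4 and DDIT3 differed from each other. Over the 12 libraries, which fall into 4 groups, the highest Pearson correlations with ATF4 among 9830 tested genes with a mean of at least 10 CPM were those of MTHFD2 (0.989), PHGDH (0.989), YARS1 (0.982), GARS1 (0.975) and PABPC4 (0.971). With DDIT3 they were those of CENPL (0.986), TRIML2 (0.981), HBEGF (0.981), WHAMM (0.981) and SNHG7 (0.98). These are descriptions of log2 CPM over libraries that share their group, with no test. Among the regulators, SESN2 ran with TRIB3 (r = 0.986) and PPP1R15A (r = 0.981), while ATF4 and DDIT3 had r = 0.364 and ATF5 and NUPR1 r = -0.852.

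Upstream of ATF4, the RNA of the 4 eIF2 kinases had log2 changes of -0.21 to 0.22 in DHN against NC. Of 9 genes for kinases and their modulators 1 rose and 6 fell in DHN against NC, where 19.7% and 19% of all genes did, and 2 rose and 3 fell in NC-A against NC (9.32% and 10.9%). EIF2AK3, which encodes PERK, the kinase of the endoplasmic reticulum, fell by 0.34 ± 0.088 in NC-A against NC and was lower in DHN-A than in DHN, by 0.49 ± 0.082. Its rise in DHN against NC (0.22 ± 0.082) was lost in 7 of 18 alternatives, DESeq2 among them. EIF2AK2 (PKR, the kinase of double-stranded RNA) fell by 0.21 ± 0.043 in DHN against NC. The falls of EIF2AK4 (GCN2, the kinase of amino acid shortage; -0.12 ± 0.046) and EIF2AK1 (HRI, the haem-regulated kinase; -0.16 ± 0.046) in DHN against NC were lost without NC 2, and that of EIF2AK4 also without NC 1, DHN 1 or DHN 3. IMPACT, an inhibitor of GCN2 activation, fell by 0.52 ± 0.097 in DHN against NC and rose by 0.51 ± 0.091 in NC-A against NC and by 0.93 ± 0.092 in DHN-A against DHN. GCN1, the activator of GCN2, fell by 0.26 ± 0.036 in DHN against NC and was higher in DHN-A than in DHN, by 0.29 ± 0.036.

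Of 15 genes for eIF2, its exchange factor eIF2B and the phosphatase that acts on eIF2 alpha, 4 rose and 2 fell in DHN against NC, near the 19.7% and 19% of all genes. PPP1R15B, the constitutive counterpart of PPP1R15A, rose by 0.48 ± 0.053 in DHN against NC and was lower in DHN-A than in DHN, by 0.54 ± 0.052. With asparagine alone, where PPP1R15A rose, it was not called: 53 ± 2.99 CPM in NC-A and 53.9 ± 1.52 CPM in NC. Of 7 tested paralogs of the regulators 4 rose and 1 fell in DHN against NC, where 19.7% and 19% of all genes did. PPP1R15B is counted in both lists. TRIB1 rose by 0.69 ± 0.064 and SESN1 by 0.50 ± 0.12 in DHN against NC, and TRIB2 fell by 0.47 ± 0.13. The rise of SESN3 (1.52 ± 0.48) rested on low counts and was lost with DESeq2 and without NC 2, DHN 2 or DHN 3.

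Genes of the other arms of the unfolded protein response mostly fell. Of 22 genes of the IRE1 and ATF6 arms, mainly chaperones of the endoplasmic reticulum, 3 rose and 16 fell in DHN against NC (median -0.23; 19.7% and 19% of all genes), and 2 rose and 13 fell in NC-A against NC (median -0.23; 9.32% and 10.9%). HSPA5, the luminal chaperone BiP, fell by 0.55 ± 0.034 in DHN against NC and by 0.84 ± 0.034 in NC-A against NC. It was lowest with both compounds, at 658 ± 15.5 CPM in DHN-A, 896 ± 25.7 CPM in DHN, 733 ± 15.6 CPM in NC-A and 1308 ± 18.1 CPM in NC. HYOU1 and PDIA4, a chaperone and a disulfide isomerase, fell by 0.59 ± 0.041 and 0.57 ± 0.034 in DHN against NC, while ERN1, the sensor IRE1, rose by 1.10 ± 0.073.

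Of 19 tested bZIP partners of ATF4 and CHOP 12 rose and 4 fell in DHN against NC, where 19.7% and 19% of all genes did. In NC-A against NC 3 rose and 4 fell, beside 9.32% and 10.9% of all genes. FOS rose by 3.02 ± 0.11, ATF3 by 1.15 ± 0.041, MAFF by 0.66 ± 0.05 and NFE2L2, which encodes NRF2, by 0.57 ± 0.051 in DHN against NC. In DHN-A against DHN 4 of the 19 rose and 9 fell (20.9% and 20.8% of all genes), with FOS at -3.50 ± 0.12 and ATF3 at -1.11 ± 0.04. ATF3 had the pattern of DDIT3 rather than that of ATF4, as it averaged 115 CPM in DHN-A, 248 in DHN, 110.4 in NC-A and 112 in NC.

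Summed levels of fibroblast and keratinocyte markers moved beside these changes. The summed level of 10 fibroblast markers was 1454 to 1518 CPM in DHN-A, 961 to 1017 in DHN, 1499 to 1521 in NC-A and 1705 to 1810.0 in NC. Of the 8 tested, 6 fell and 0 rose in DHN against NC, where 19% and 19.7% of all genes did. Of the 10 markers 3 averaged under 0.5 CPM, none at 0 in every library. The summed level of 10 keratinocyte markers was 33.3 to 40.3 CPM in DHN-A, 40.3 to 45.3 in DHN, 35.9 to 39.6 in NC-A and 33.5 to 34.6 in NC. Of these 2 were tested, KRT10 and KRT17, and both rose in DHN against NC, where 19.7% of all genes did. Of the 10 markers 8 averaged under 0.5 CPM and 1 was at 0 in every library. The 24 lens markers summed to 174 to 178 CPM in DHN-A, 171 to 183 in DHN, 173 to 179 in NC-A and 179 to 189 in NC. Of 8 tested lens markers 3 rose and 1 fell in DHN against NC, where 19.7% and 19% of all genes did. All libraries come from a single cell line, and the part of these marker changes in the results above was not tested. Sums of 10 markers each of immune cells and pigment cells stayed under 13 CPM in every library. Of these, 3 and 5 were tested, and 1 of each list rose and 0 fell in DHN against NC, where 19.7% and 19% of all genes did.

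**Figure D5:**
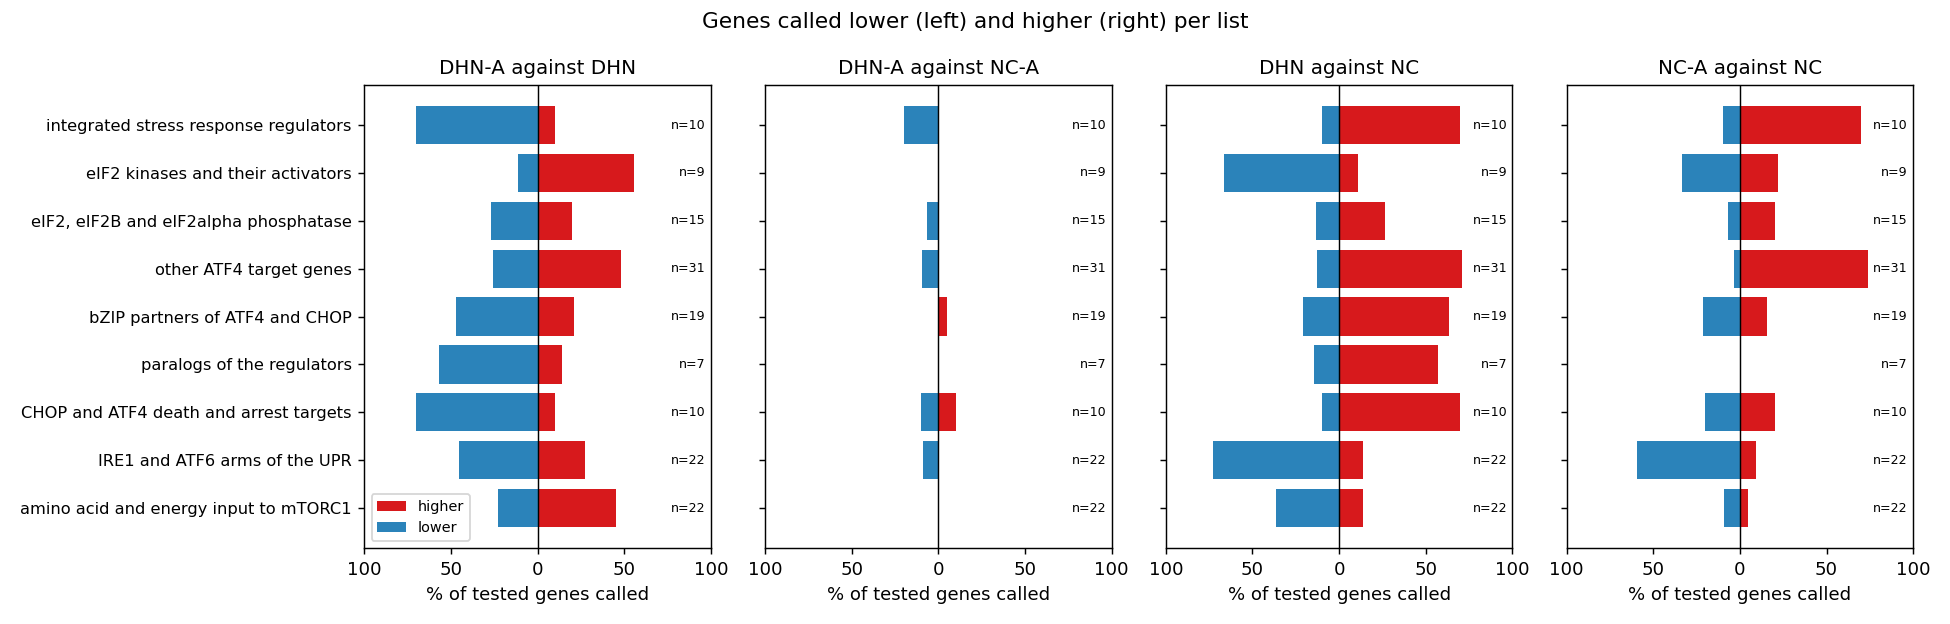
Share of the tested genes of each list called lower (blue, to the left) or higher (red, to the right) in DHN-A against DHN, DHN-A against NC-A, DHN against NC and NC-A against NC; n is the number of genes tested. The 10 regulators lean right in DHN against NC and NC-A against NC and left in DHN-A against DHN, and the IRE1 and ATF6 arms lean left in DHN against NC.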

How the data were processed

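The authors deposited unnormalized whole-number counts of reads, 1 row per symbol and 1 column per library (12 in all), beside a column of gene lengths; reads were aligned with Bowtie to hg38, per the submitters' processing notes. No source used here gives the aligner's version, the counting tool, its strand setting or the annotation; the library kit was stranded, per the labels' protocols. Members and lists were chosen with earlier results of these data known. Genes passing filterByExpr (17889 of 60641 symbols) were fitted with edgeR 4.0.16 (R 4.3.3; TMM factors, robust quasi-likelihood test, 1 mean per group, all 12 libraries) in 7 comparisons, with Benjamini-Hochberg adjustment over all tested genes and a threshold of 0.05. Standard errors and 95% intervals derive from the quasi-likelihood statistic and are approximate. The procedure was tested on simulated counts. CPM and TPM were computed here from the deposited counts, and replicate pairs differed beyond counting noise (mean chi-square per gene 1.74 to 4.24). Of the 10 genes 3 had a table length equal to the exon union in GENCODE release 29. Beside the 10 regulators, genes were named by rank of p within each list in DHN against NC and in the interaction (up to 4 each) and from a fixed set that holds the 4 eIF2 kinases, ASNS, ATF3, HSPA5 and paralogs; opposite-strand neighbours and genes given with CPM only were added after the values were seen. SAMTOR and LORICRIN were matched by older symbols. Alternatives were RLE factors, DESeq2 1.42.0, limma-voom (limma 3.58.1), no filter on low counts, a replicate block, fits limited to the compared groups, and leaving out every library in turn.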

Additional observations from a re-analysis of the deposited data

Results flagged for a closer look

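The change with 1,2-DHN differed between cells with and without asparagine for 7 regulators, by the interaction test of edgeR. The log2 change with asparagine minus that without was -1.644 for CHAC1, -1.469 for SESN2, -1.396 for PPP1R15A, -1.067 for TRIB3, -0.9492 for DDIT3, -0.7806 for ATF4 and -0.7227 for CEBPG. All 7 stayed called in each of the 17 alternatives run for the interaction. They are the 7 genes called higher in DHN against NC, and their interaction is not independent of that rise.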

How the results depend on the processing

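Over the 10 regulators and 7 comparisons, 1207 of 1246 alternative values kept their direction and their side of the threshold, 10 lost a call, 4 gained one and 25 changed sign, all 25 on changes that were not called. With no filter on low counts, 1 regulator was called lower in DHN-A against NC-A, as CEBPG lost its call, and the log2 changes of DDIT3 in NC-A against NC and NUPR1 in DHN-A against NC-A became -0.012 and 0.015. CEBPG in DHN against NC-A lost its call with no filter (adjusted p = 0.0686) and without NC-A 2, NC-A 3, DHN 1 or DHN 2 (0.0505 to 0.141).

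With each library left out in turn, the count of all genes called in DHN-A against NC-A ran from 143 to 426, against 375, and was lowest without DHN-A 2. The count of regulators called lower in DHN-A against NC ran from 1 to 2. The log2 change ran from -0.13 to 0.034 for NUPR1 in DHN against NC and from -0.051 to 0.12 for DDIT3 in NC-A against NC. In DHN-A against NC-A it ran from -0.033 to 0.068 for TRIB3, from -0.053 to 0.083 for CHAC1 and from -0.11 to 0.12 for NUPR1. In the interaction it ran from -0.047 to 0.074 for ATF5 and from -0.075 to 0.16 for NUPR1. The cause of these changes was not tested.

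Same-numbered libraries did not deviate together (18 correlations of -0.176 to 0.229, 1 of them over 0.1), so the numbers were not taken as pairs. With the replicate block 6805 genes were called in DHN against NC, 3458 in NC-A against NC, 7361 in DHN-A against DHN and 334 in DHN-A against NC-A, and no regulator's call changed. The low counts of NUPR1 limit its precision most.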

Other observations

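Of 10 tested genes through which CHOP and ATF4 are known to act on survival and growth arrest, 7 rose and 1 fell in DHN against NC, where 19.7% and 19% of all genes did. In NC-A against NC 2 rose and 2 fell (9.32% and 10.9% of all genes), and in DHN-A against DHN 1 rose and 7 fell (20.9% and 20.8%). GADD45A, a growth arrest gene, rose by 1.18 ± 0.042 on the log2 scale in DHN against NC and by 0.60 ± 0.043 in NC-A against NC, CDKN1A, the cell cycle inhibitor p21, by 0.80 ± 0.04 in DHN against NC, and TNFRSF10B, the death receptor DR5, by 0.46 ± 0.042 in DHN against NC. ERO1A, an oxidase of the endoplasmic reticulum described as a CHOP target, fell by 0.69 ± 0.039 in DHN against NC, where DDIT3 rose.

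Of 22 tested genes through which amino acids and energy reach mTORC1, where SESN2 and DDIT4 act, 3 rose and 8 fell in DHN against NC (median -0.12), where 19.7% and 19% of all genes did. In NC-A against NC 1 rose and 2 fell, no larger a share than among all genes (9.32% and 10.9%). TSC2, the partner through which REDD1 acts, fell by 0.40 ± 0.045 in DHN against NC and was higher in DHN-A than in DHN, by 0.51 ± 0.045. RRAGA, a GTPase of the amino acid branch, fell by 0.43 ± 0.062, and AKT1S1, an inhibitory subunit, rose by 0.39 ± 0.052 in DHN against NC.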
